A study of Rattus norvegicus with 6 samples.

Results

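The transcripts described here encode enzymes that break down sugar and glycogen. They are *Pkm* (pyruvate kinase M), *Eno3* (beta-enolase, the muscle enolase), *Gapdhs* (the sperm form of glyceraldehyde-3-phosphate dehydrogenase) and *Pygm* (muscle glycogen phosphorylase). The 4 genes were selected on their measured levels on these same 6 arrays, out of 8752 named genes with a detected probe, so their values are given as a description and no test is reported for them. Each gene was read by 1 probe. In short, *Pkm* was low in 2 of the 3 mutant pools, *Pygm* and *Eno3* were low in the end-stage mutant pool, and *Gapdhs* stayed near background in all 6 pools.

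Glycolysis splits glucose into pyruvate in the cytosol and yields ATP without oxygen. Enolase makes phosphoenolpyruvate and pyruvate kinase turns it into pyruvate in the last step, while glyceraldehyde-3-phosphate dehydrogenase acts earlier and makes NADH. Glycogen phosphorylase releases glucose units from glycogen, the storage form of glucose, and feeds them into the same pathway. Several of these steps have tissue forms. In mammals Eno3 and Pygm predominate in skeletal muscle, Pygm is also the form found in astrocytes beside the brain form Pygb, Eno2 is the neuronal enolase, and Gapdhs is known from spermatids.

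Spinal cord RNA of female Sprague-Dawley rats was hybridised to 6 Illumina BeadChip arrays. Of these, 3 arrays held rats with the G93A mutation of the superoxide dismutase gene SOD1, a model of amyotrophic lateral sclerosis, and 3 held wild-type (WT) littermates. Each array was a pool of 5 rats, with 1 pool per genotype before symptoms (the presymptomatic stage), 1 at the onset of disease and 1 at end stage. No combination of genotype and stage had a second pool, and the sources used here do not give the promoter that drives the mutant SOD1. Lumbar cord is named in some label fields and thoracic cord in another, and every sample carries an age of 10 weeks, although the design text ties that age to the presymptomatic rats. The number of arrays limits the precision of every value. In bulk tissue, fewer cells of a type and less RNA per cell cannot be told apart.

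Of 22226 probes, 9116 (in the presymptomatic mutant pool) to 10942 (in its WT counterpart) had a detection p below 0.01, here called detected. All gene names rest on putting the probe IDs back in order, since in the deposited order they were attached to the wrong values. With the IDs sorted as text, 1.38% of 1305 sensory receptor probes and 87.4% of 183 ribosomal, respiratory chain and proteasome probes were detected on all 6 arrays, against 37.8% and 41.5% as deposited. Around each of the 4 genes the sensory share was lowest with the IDs in place. Within 1000 rows on either side, the sensory share was 0.870% (*Pkm*), 0.862% (*Eno3*), 1.44% (*Gapdhs*) and 0.752% (*Pygm*), and moving the IDs by 1 row either way raised it to between 27.6% (*Eno3*) and 42.1% (*Pygm*). The core share there was 71.4% to 87.5% in place, though near *Eno3*, with 12 such probes, it was 83.3% in place and 91.7% after a move of 1 row. The identity of each probe still depends on this step, and the probe sequences, and so the splice forms of *Pkm* they would read, were not used here.

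The promoters of the 3 genes that were low in the end-stage mutant pool are shown for reference, as the 250 bases before the start site in the RefSeq annotation of GRCr8, 5′ to 3′. Capitals mark matches, on either strand, to the E-box CANNTG, which muscle regulatory factors bind, the GC box GGGCGG, the TATA box TATAAA or the hypoxia core ACGTG.
*Pkm*, chr8:68953385-68953634, plus strand: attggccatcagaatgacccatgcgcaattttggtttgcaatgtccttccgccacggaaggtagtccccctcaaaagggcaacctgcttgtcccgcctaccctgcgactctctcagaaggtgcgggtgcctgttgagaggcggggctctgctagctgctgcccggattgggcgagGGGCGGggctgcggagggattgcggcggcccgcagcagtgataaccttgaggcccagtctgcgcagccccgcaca
*Eno3*, chr10:55868936-55869185, plus strand: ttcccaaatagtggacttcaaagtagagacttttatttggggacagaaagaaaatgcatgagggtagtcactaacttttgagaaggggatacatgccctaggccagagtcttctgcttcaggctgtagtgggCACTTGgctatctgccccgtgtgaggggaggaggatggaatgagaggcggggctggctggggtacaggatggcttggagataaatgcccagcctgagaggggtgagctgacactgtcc
*Pygm*, chr1:213119555-213119804, plus strand: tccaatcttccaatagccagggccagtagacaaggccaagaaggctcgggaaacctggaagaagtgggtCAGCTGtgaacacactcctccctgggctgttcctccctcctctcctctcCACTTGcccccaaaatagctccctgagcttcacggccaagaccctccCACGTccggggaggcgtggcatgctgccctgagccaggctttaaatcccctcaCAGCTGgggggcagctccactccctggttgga

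The *Pkm* promoter held 1 GC box and no E-box, the *Eno3* promoter held 1 E-box, and the *Pygm* promoter held 3 E-boxes and 1 hypoxia core. None of the 3 held the TATA letters. Of 33469 rat promoters of the same length, 65.5% held an E-box, 30.5% a GC box, 16.6% the hypoxia core and 12.9% the TATA box. A match describes these letters and is not a binding site.

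*Pkm*, whose product carries out the last step of glycolysis, was high and even in the WT pools. Its deposited intensity, a linear signal with the background already subtracted, was 780.4 in the presymptomatic, 825 in the onset and 705 in the end-stage WT pool (mean 770.2 ± 60.6, SD, n = 3 pools). The mutant pools stood at 63.8 in the presymptomatic, 726 in the onset and 189.6 in the end-stage pool. The onset mutant pool thus lay inside the WT range and the other 2 far below it.

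In intensity, *Pkm* was 12.2-fold lower in the presymptomatic mutant pool than in the WT pool of that stage, 1.14-fold lower at onset and 3.72-fold lower at end stage. The loss was not ordered by stage, since the onset mutant pool held 11.4 times the intensity of the presymptomatic mutant pool and 3.83 times that of the end-stage one. After background correction and quantile normalization the log2 differences (mutant minus the stage-matched WT pool) were −2.43, −0.17 and −1.88, where the 3 WT pools spanned 0.16. These differences were the 19th lowest of 7892 genes at the presymptomatic stage and the 10th lowest of 7942 at end stage. A difference of 2-fold or more downwards was found in 2.64% of all genes at the presymptomatic stage, 0.189% at onset and 1.86% at end stage. Between WT pools, 0.732% of genes were 2-fold apart in either direction from presymptomatic to onset, 0.76% from presymptomatic to end stage and 0.601% from onset to end stage. *Pkm* was in the first and the last of these sets, and because it was chosen for its low level nothing is read from that.

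**Figure D1:**
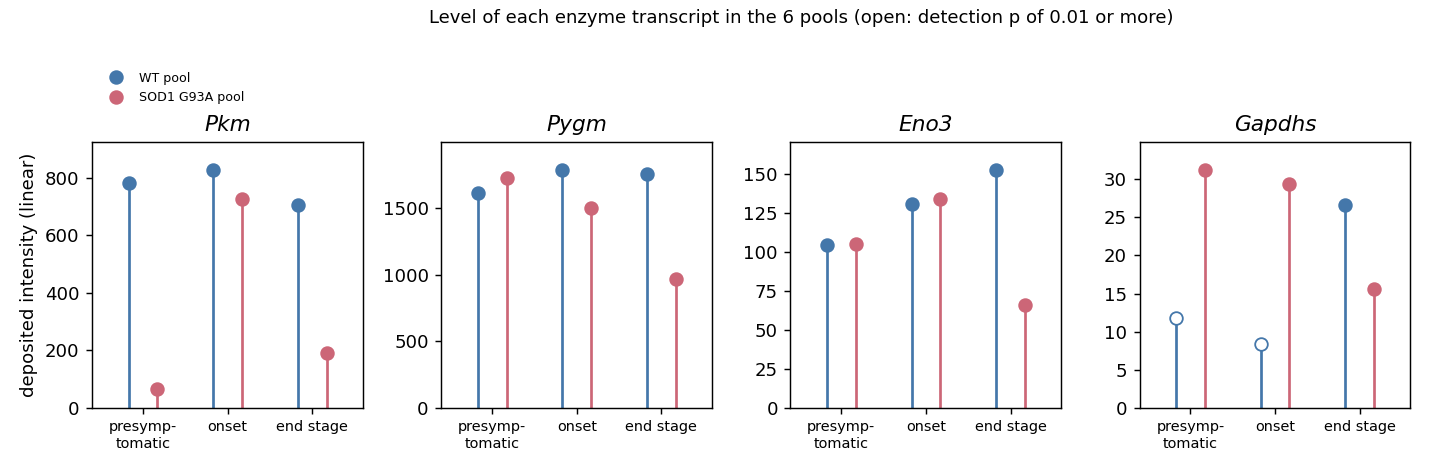
Deposited intensity (linear scale, from 0) of the 4 enzyme transcripts, 1 point per pool, with WT pools in blue and SOD1 G93A pools in red. Open points were not detected (detection p of 0.01 or more). *Pkm* is low in the presymptomatic (63.8) and end-stage (189.6) mutant pools, *Pygm* and *Eno3* are lowest in the end-stage mutant pool (972 and 66.1), and *Gapdhs* does not pass 31.1 in any pool.

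The genes with the pattern most like that of *Pkm* were ranked by Pearson's r of the log2 level over the 6 pools, among 2534 named genes with an SD of at least 0.25 over the pools. The values are a description, and all points share their arrays and normalization. They were *Atp5f1d*, a subunit gene of mitochondrial ATP synthase (r = 0.991), *Sptbn4*, the beta-IV spectrin of the axon initial segment (0.991), *Syt3*, a synaptotagmin (0.990), *Qdpr*, which regenerates tetrahydrobiopterin (0.987), and *Pfkm*, the muscle form of phosphofructokinase and another enzyme of glycolysis (0.986). *Sptbn4* had intensities of 724, 625 and 527 in the WT pools, in the order of the stages. It had 47.5, 563 and 184 in the mutant pools, and so fell to its lowest value in the same pool as *Pkm*. *Qdpr* went from 2786, 2595 and 2562 to 628, 2498 and 1077. *Pfkm* went from 1310.3, 1313 and 1218 to 627, 1086 and 753.

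Of the transcripts of neurons and myelin, 3 that were low in the same pools are given here. They were singled out after their values were seen. *Nefh*, the heavy neurofilament, had log2 differences of −3.32, −0.36 and −1.97, *Thy1*, a neuronal surface protein, −1.39, 0.27 and −1.15, and *Mbp*, of myelin, −1.47, 0.22 and −1.27, each in the order presymptomatic, onset, end stage. Across all genes, 31 were at least 2-fold lower at both the presymptomatic stage and end stage, *Pkm* among them. They make up 14.9% of the 208 lower genes of the presymptomatic stage and 20.9% of the 148 of end stage. None of the 208 was among the 15 lower genes of onset. The presymptomatic mutant array was also the one with the fewest detected probes (9116) and the lowest median intensity (7.21, against 8.11 to 14.1 on the other 5), and the part of the array in the low *Pkm* level was not tested. Summed over 12 neuron markers the intensity was 38121 in the presymptomatic mutant pool, against 40228 to 47253 in the WT pools, with 8 of the 12 lower, 4 of them at least 2-fold, and a median log2 difference of −0.16. Of 7 oligodendrocyte markers, 6 were lower there, 3 of them at least 2-fold (median −0.97). In the onset mutant pool, where *Pkm* lay inside the WT range, the neuron sum was 28533, below that of the presymptomatic mutant pool. There 9 of 12 neuron markers (median −0.36) and 4 of 7 oligodendrocyte markers (median −0.01) were lower. At end stage all 12 neuron markers (median −0.78) and all 7 oligodendrocyte markers (median −0.44) were lower. Among all genes, 44.6% were lower at the presymptomatic stage, 53.9% at onset and 52.8% at end stage. The part of these cell types in the *Pkm* level was not tested.

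**Figure D2:**
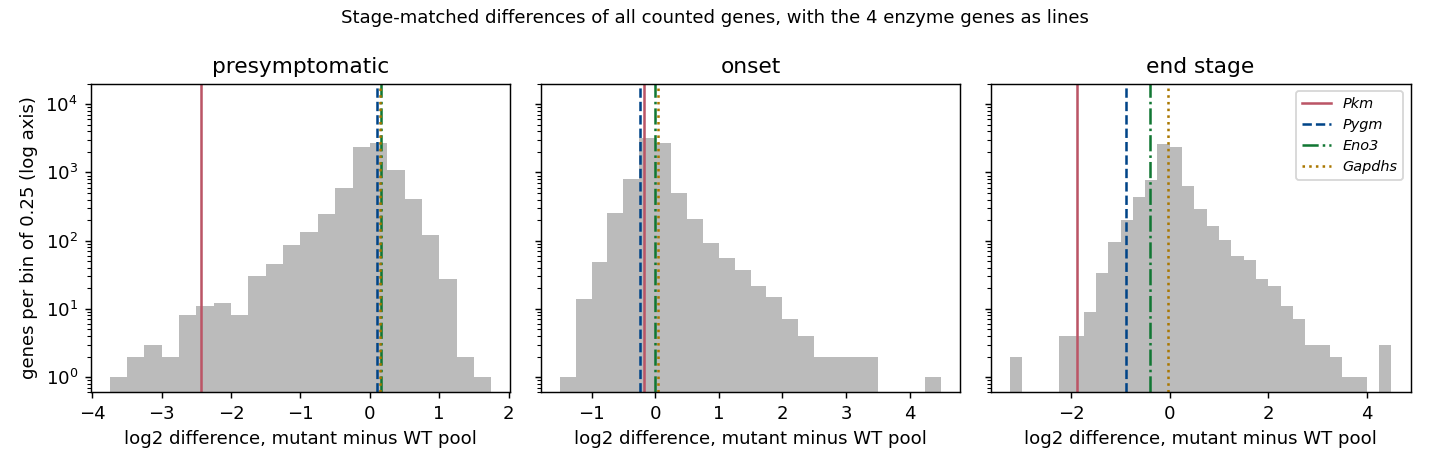
Number of genes (log axis) by log2 difference between the mutant and the WT pool of each stage, in bins of 0.25, with the 4 enzyme genes as vertical lines. *Pkm* lies in the left tail at the presymptomatic stage (−2.43) and at end stage (−1.88) and near the centre at onset (−0.17), and *Pygm* lies in the left flank at end stage (−0.89).

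*Eno3*, the enolase of muscle, was a dimmer transcript that differed among the WT pools themselves. Its intensities were 104 in the presymptomatic, 130.4 in the onset and 152 in the end-stage WT pool (128.9 ± 24.0, SD, n = 3 pools), and 105, 134 and 66.1 in the mutant pools. The presymptomatic and onset mutant pools matched the WT pools of their stage within 3% (intensity ratios 1.01 and 1.03). The end-stage mutant pool was the lowest of all 6, at 2.30-fold less than the end-stage WT pool and below all 3 WT pools. On the normalized log2 scale the end-stage difference was −0.41, where the WT pools spanned 0.29. That scale compresses dim transcripts, since with a lower estimate of the background noise the difference was −1.08. Set against the presymptomatic WT pool in place of the end-stage one, the normalized difference was −0.12, as the end-stage WT pool was the highest of the 6.

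The summed intensity of skeletal muscle markers nearly followed *Eno3* over the pools. Summed over the 18 measured muscle genes, the intensity was 4261, 6304 and 9431 in the WT pools from presymptomatic to end stage, and 3908, 6741 and 2822 in the mutant pools. The order of the pools was thus nearly that of *Eno3*, with the end-stage pools at the 2 extremes. Of the 18 genes, 16 had a lower value in the mutant pool at end stage, 8 of them at least 2-fold. Among all genes, 52.8% were lower at that stage and 1.86% at least 2-fold lower. Lower values were found in 7 of 17 counted muscle genes at the presymptomatic stage and in 10 of 18 at onset. *Tnnc2* (fast troponin C) had intensities of 724, 1073 and 2023 in the WT pools and 877, 877 and 237 in the mutant pools, and its log2 level had r = 0.93 with that of *Eno3* over the 6 pools. For *Acta1* (skeletal muscle actin) r was 0.85, for *Actn3* (fast muscle actinin) 0.81 and for *Ckm* (muscle creatine kinase) 0.69. It was computed for no other gene of the muscle list. At the presymptomatic stage *Ckm* had a log2 difference of −0.80, where *Eno3* had 0.17. The fast myosin gene *Myh4* was detected on 2 of 6 arrays, and *Pgam2*, the muscle form of phosphoglycerate mutase, read 8.95, 51.7 and 40.3 in the WT pools and 15.3, 61.7 and 13.5 in the mutant pools. The part of muscle RNA in the *Eno3* level was not tested. The 5 genes most like *Eno3* were no muscle markers. They were *Nmu* (r = 0.98), which encodes neuromedin U, *Gripap1* (0.97), *Ncdn*, which encodes neurochondrin (0.96), *Ciao1* (0.94) and *Mtch1* (0.94), among 2535 genes. *Ncdn*, for example, had intensities of 3943, 4288 and 5352 in the WT pools and 5239, 3875 and 3030.3 in the mutant pools. The log2 level of *Eno3* itself ran only from 6.95 to 7.37, so all r values with *Eno3* rest on small steps.

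*Gapdhs*, known for its role in the glycolysis of sperm tails, was close to background throughout. Its intensities in the WT pools were 11.8, 8.36 and 26.6, the first 2 with detection p-values of 0.0123 and 0.0832 and therefore not detected. The mutant pools read 31.1, 29.3 and 15.6, all detected. The ranges of the genotypes overlapped, and the noise of single probes had an SD of 6.52 to 8.46 intensity units, so that most of these values lie within a few SDs of it. As bounds, *Gapdhs* was at least 1.10-fold higher in the mutant pool at the presymptomatic stage and at least 1.03-fold higher at onset. At end stage, with both pools detected, the log2 difference was −0.046. With the lower noise estimate the differences were 1.22, 0.54 and −0.42, so the size depends on the treatment of background.

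Spermatid markers gave no sign of that cell type. Of 9 such genes with a probe, *Prm1*, *Prm2*, *Tnp1*, *Tnp2*, *Odf1* and *Spata19* were detected on no array, *Ldhc* on 1 and *Akap3* on 2. Only *Tekt1*, which ciliated cells also express, was detected on all 6. The list's summed intensity ran from 202 to 318 in the WT pools and from 197 to 283 in the mutant pools. The genes most like *Gapdhs* over the pools were *Nupr2* (r = 0.99), *Bop1*, of ribosome assembly (0.98), *Elmo2* (0.97), *Chchd5* (0.96) and *Cisd3* (0.96), all highest in the presymptomatic mutant pool. The log2 level of *Gapdhs* itself ran only from 6.71 to 6.87, so these r values rest on small steps near background.

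*Pygm*, which releases glucose from glycogen, was even in the WT pools and lower in the end-stage mutant pool. Its intensities were 1613, 1786 and 1756 in the WT pools (1718 ± 92.4, SD, n = 3 pools). They were 1731, 1499.6 and 972 in the mutant pools. The presymptomatic mutant pool lay inside the WT range, the onset pool 1.19-fold below its WT pool and just under the range, and the end-stage pool 1.81-fold below its WT pool. The normalized log2 differences were 0.10, −0.23 and −0.89, where the WT pools spanned 0.17, and the end-stage value was the 215th lowest of 7942. Unlike *Pkm*, *Pygm* was not low in the presymptomatic mutant pool.

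Most astrocyte and muscle markers were lower with *Pygm* at end stage. Summed over 5 astrocyte markers the intensity was 15114, 13911 and 14797 in the WT pools and 14994, 12993 and 10261 in the mutant pools. Most of that sum was the calcium-binding protein gene *S100b*, at 9398 in the end-stage WT and 5764 in the end-stage mutant pool. The connexin gene *Gjb6* read 2788 and 1498 in those pools, and the remaining markers together were not lower in intensity. Over the 6 pools *S100b* had r = 0.96 with *Pygm* and *Gjb6* r = 0.88, and r was computed for no other marker of that list. Of the muscle genes, *Tnnc2* had 0.91 and *Ckm* 0.71. Neither sum had the order of *Pygm* over the WT pools, where *Pygm* itself spanned only 0.17 in log2. The astrocyte sum was highest in the presymptomatic pool, in which *Pygm* was lowest, and the muscle sum was 4261, 6304 and 9431. On the normalized scale 5 of 5 astrocyte markers were lower in the presymptomatic mutant pool (median −0.12), beside 44.6% of all genes. *Pygm* was higher there by 0.097, less than its WT span. In intensity *S100b* was higher in that pool (9890 against 9589) and the other astrocyte markers were lower. At end stage 4 of 5 astrocyte markers were lower on the normalized scale, beside 52.8% of all genes. The part of either cell type in the *Pygm* level was not tested. The 5 genes most like *Pygm* were *Gabbr2*, a subunit gene of the GABA-B receptor (r = 0.998), *Sec11c*, of the signal peptidase (0.996), *Tst*, the sulfurtransferase rhodanese (0.99), *Cabp7*, a calcium-binding protein (0.98), and *Hagh*, which detoxifies a by-product of glycolysis in the glyoxalase pathway (0.98). *Hagh* had intensities of 1042, 1549 and 1437 in the WT pools and 1499.6, 1049.8 and 469 in the mutant pools.

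**Figure D3:**
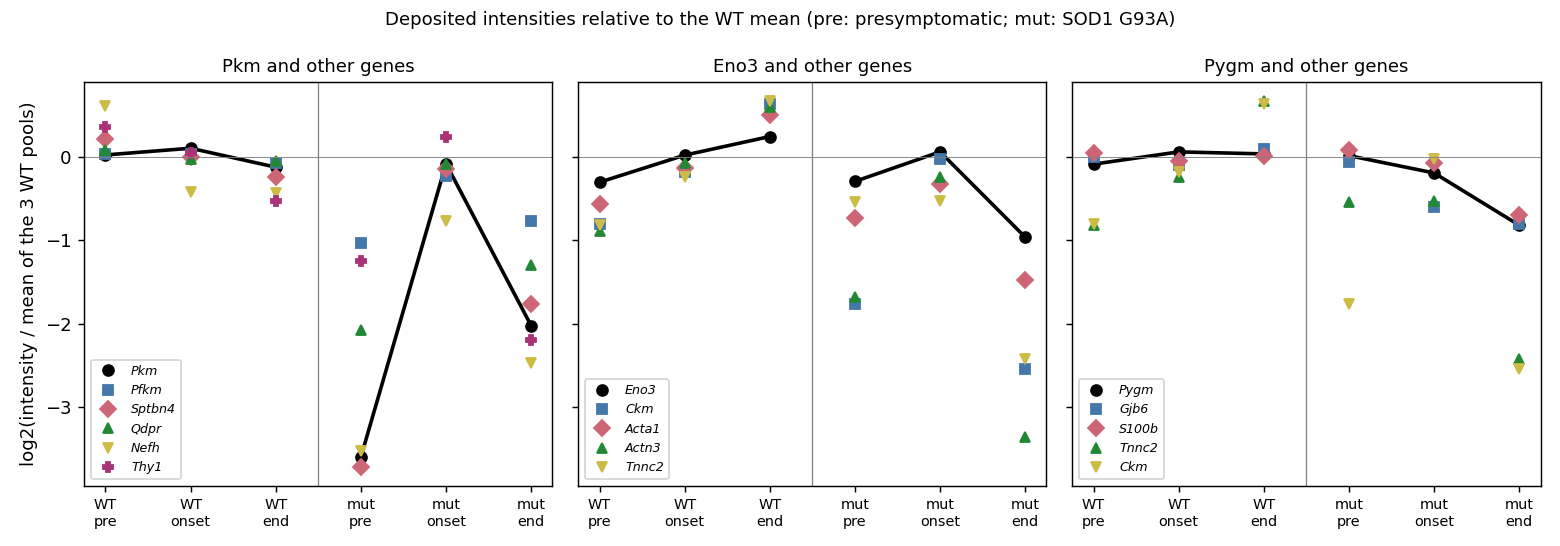
Deposited intensity as log2 of the ratio to the mean of the 3 WT pools, for *Pkm*, *Eno3* and *Pygm* (black, joined within a genotype as a guide) beside other genes (coloured points), in the 6 pools. *Sptbn4*, *Qdpr* and *Nefh* share the low points of *Pkm* in the presymptomatic and end-stage mutant pools. The muscle genes nearly follow the order of *Eno3*, with larger steps. *S100b* and *Gjb6* share the low point of *Pygm* in the end-stage mutant pool, and *Gjb6* lies below *Pygm* in the onset mutant pool.

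Among themselves the 4 genes did not form a single pattern. Over the 6 pools the log2 levels of *Eno3* and *Pygm* had r = 0.79, those of *Pkm* and *Pygm* 0.48, those of *Pkm* and *Eno3* 0.21 and those of *Gapdhs* and *Pkm* −0.66. The pool in which *Pkm* was lowest was one in which *Eno3* and *Pygm* were at their WT level.

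The other measured isoforms of the 4 enzymes had no common direction. At end stage the log2 differences of *Eno1*, *Eno2* and *Pygb* (−0.50) were negative, as for *Pkm*, *Eno3* and *Pygm*. That of *Pygl* was positive. *Pklr*, the liver and red cell pyruvate kinase, was detected only in the end-stage WT and end-stage mutant pools (14.0 and 11.3). *Eno1*, the widespread enolase, had intensities of 431, 373 and 383 in the WT pools and 231, 378 and 261 in the mutant pools. It was therefore low in the same 2 mutant pools as *Pkm* (r = 0.90), with smaller log2 differences of −0.65, 0.03 and −0.58. *Eno2*, the neuronal enolase, read 8030.4, 6888 and 9149 in the WT pools and 7359, 5017 and 5774 in the mutant pools, with log2 differences of −0.31, −0.46 and −0.61. *Pygb*, the brain phosphorylase, read 6320, 5131 and 6346 against 4180.3, 3935 and 4415 and was lower in all 3 mutant pools than in any WT pool. *Pygl*, the liver phosphorylase, went the other way, with 139, 250.6 and 162 in the WT pools and 116, 264 and 463 in the mutant pools, 2.29-fold higher at end stage on the normalized scale. None of these 5 passed limma's test of the end-stage mutant pool against the 3 WT pools (adjusted p = 0.131 for *Pygl*, 0.227 for *Eno1*, 0.285 for *Eno2*, 0.323 for *Pygb* and 0.906 for *Pklr*). No probe carried the name of the general *Gapdh* gene in the annotation used.

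The question of the remaining comparisons was whether the rest of each pathway differed in the same way. In limma's test the end-stage mutant pool was set against the 3 WT pools, with the lone mutant pool assumed to vary as they do. The p-values measure the spread between these pools only. Of 12711 probes, 213 (1.68%) passed the adjusted p threshold of 0.05, 166 of them higher (1.31%) and 47 lower (0.37%). Counted by gene, 1.59% of 8752 genes were called higher and 0.4% lower. At onset 0 probes passed (smallest adjusted p = 0.0644, 1601 probes at an unadjusted p under 0.05), at the presymptomatic stage 0 (0.119, 1786 probes), and in the comparison of all 3 mutant with all 3 WT pools with stage as a block 0 (0.383, 1181 probes).

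Of the other glycolysis genes, 21 of 32 listed had a probe detected on at least 1 array, and 15 of them were detected on all 6. At end stage 20 could be counted, of which 14 were lower and 6 higher in the mutant pool, where 52.8% of all 7942 genes were lower. The median log2 difference was −0.31 beside −0.01 for all genes. The medians were −0.13 at the presymptomatic stage (all genes 0.03) and 0.02 at onset (all genes −0.01). In the limma test of end stage, *Pfkm* (lower) and *Hk3* (higher) passed and 0 other genes of the list did. Both calls rest on 1 mutant pool and were lost when any 1 WT pool was left out. Neuron markers were lower too, 12 of 12 at end stage with a median of −0.78, and their part in the values of this list was not tested.

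*Pfkm*, the muscle form of the enzyme that commits sugar to glycolysis, had log2 differences of −1.06, −0.26 and −0.76 by stage. Against the 3 WT pools the end-stage pool was lower by a log2 difference of −0.80 ± 0.05 (SE, limma adjusted p = 0.0411). It was below all 3 WT pools in each of the 3 mutant pools. The call was lost with either other treatment of background (adjusted p = 0.0813 and 0.124), with probes detected on all arrays alone (0.0537), with a trended prior (0.0721) and with any 1 WT pool left out (0.134 to 0.179), though the difference stayed between −0.83 and −0.72 in these. *Pfkp*, the platelet form, had differences of −0.32, −0.42 and −0.65 (adjusted p = 0.108 at end stage). *Aldoc*, the aldolase of brain, stood at −0.60 and *Ldhb*, the lactate dehydrogenase of heart and brain, at −0.44 at end stage, without passing the test.

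*Hk3*, a hexokinase of white blood cells, read 8.11, 15.2 and 5.41 in the WT pools, of which only the onset pool was detected. It read 12.4 in the presymptomatic mutant pool, also not detected, and 223 and 252 in the onset and end-stage mutant pools. At end stage it was at least 2.10-fold higher than in its WT pool. The limma adjusted p against the 3 WT pools was 0.0285, in a fit where the undetected WT values lie at the lower end of the scale and differ little from each other. The stage-matched log2 difference of 1.08 became 3.49 with the lower noise estimate. With any 1 WT pool left out the adjusted p was 0.129 to 0.179. Microglia and macrophage markers moved with it. Their summed intensity over 9 genes was 4879 to 6024 in the WT pools, 5642 in the presymptomatic mutant pool and 23209 and 25145 in the onset and end-stage mutant pools, and their part in the *Hk3* level was not tested. *Ldha*, the muscle form of lactate dehydrogenase, read 826, 1684 and 974 in the WT pools and 746, 2561 and 1529 in the mutant pools. The onset pools of both genotypes were the highest of their genotype, and the test was not passed (adjusted p = 0.735 at end stage).

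**Figure D4:**
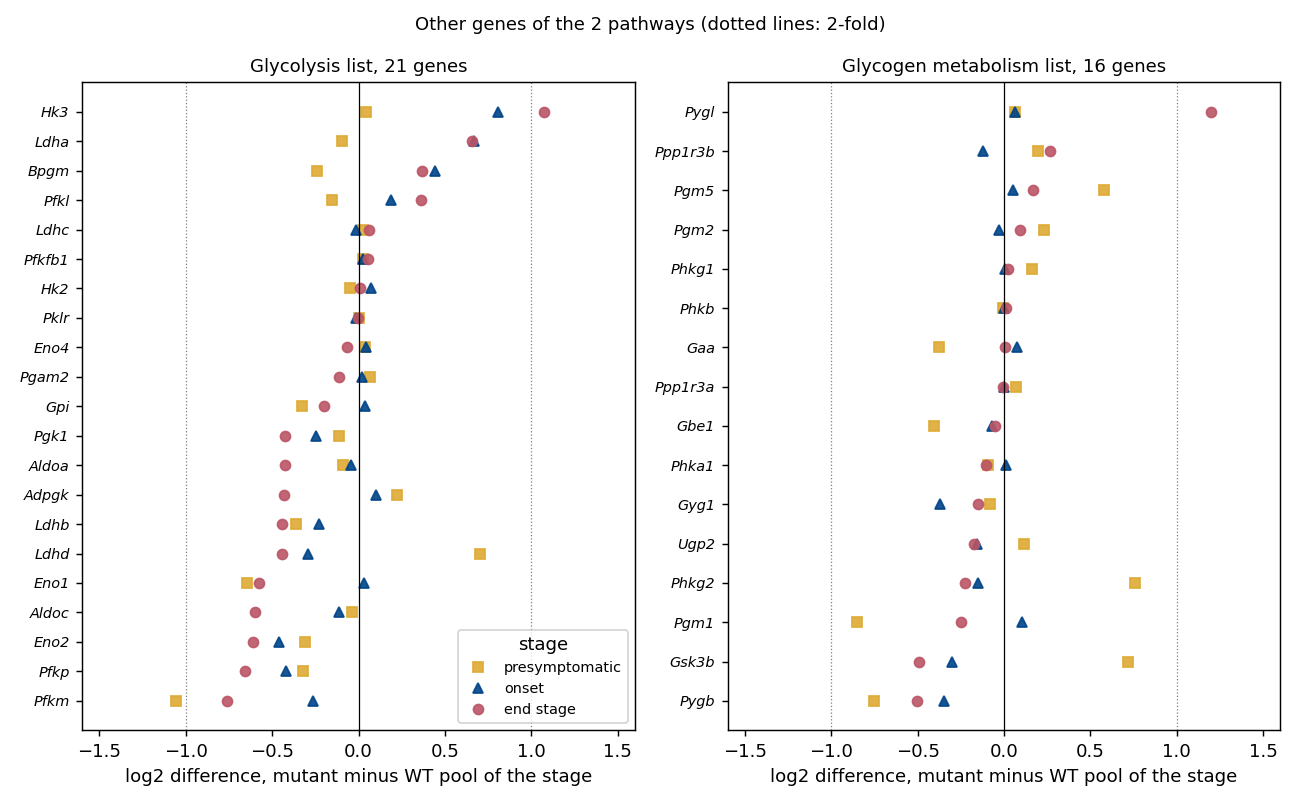
Log2 difference between the mutant and the WT pool of each stage (squares, triangles and circles for presymptomatic, onset and end stage) for the other measured genes of glycolysis (21) and glycogen metabolism (16), ordered by the end-stage value. Dotted lines mark 2-fold. At end stage 14 of the 20 counted glycolysis genes lie to the left of 0, *Pfkm* the farthest (−0.76), and *Hk3* (1.08) and *Pygl* (1.20) lie to the right.

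The glycogen list showed no common direction. Of 30 genes listed, 16 had a detected probe. At end stage 8 of 14 counted genes were lower and 6 higher (median −0.08), and at the presymptomatic stage 7 of 16 were lower and 9 higher (median 0.07). In the limma tests 0 of them passed at any stage, with 1 at an unadjusted p under 0.05 at end stage. *Pygl* was the only one at least 2-fold apart between the pools of a stage, where 3.68% of all genes were at least 2-fold higher at end stage, 1.88% at onset and 0.38% at the presymptomatic stage. *Ppp1r3b*, which targets a phosphatase to glycogen, had an end-stage difference of 0.26, and *Gsk3b*, the kinase named for glycogen synthase, −0.49 after 0.72 at the presymptomatic stage. *Pgm1*, which interconverts glucose phosphates after phosphorylase, stood at −0.85, 0.11 and −0.25 by stage.

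Of the genes for glucose and lactate transport, 10 were measured and 0 passed the limma tests. *Slc2a5*, the fructose transporter that rodent microglia express, read 258, 239.5 and 328 in the WT pools and 282, 709.7 and 734 in the mutant pools, 3.26-fold higher at onset and 2.32-fold at end stage on the normalized scale (adjusted p = 0.237 and 0.136). *Slc2a6* had differences of −0.73, −0.26 and −0.77. *Slc2a8* stood at −0.17 and the lactate transporter gene *Slc16a3* at 0.06 at end stage. The glucose transporter genes *Slc2a1* and *Slc2a3* were detected on 1 and 2 of the 6 arrays.

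Downstream of pyruvate kinase, 26 of 28 counted genes of pyruvate entry and the citric acid cycle had lower values in the mutant pool at end stage (median −0.37), 23 of 28 at onset (−0.17) and 18 of 29 at the presymptomatic stage (−0.17). Of all genes, 52.8% were lower at end stage, 53.9% at onset and 44.6% at the presymptomatic stage. In the limma tests 0 of them passed. The neuron list, with 12 of 12 lower at end stage, moved the same way, and its part was not tested. The largest differences of this list were at the presymptomatic stage. *Dld* and *Pdha1*, subunit genes of pyruvate dehydrogenase, stood at −1.70 and −1.55 there, and the isocitrate dehydrogenase gene *Idh2* at −1.11, against −0.40, −0.35 and −0.24 at end stage. *Pdha1* also differed among the WT pools (1984, 1597 and 901). At end stage *Mdh1* (−0.75) and *Dlst* (−0.74) were the lowest, and *Pdk1*, a kinase that shuts pyruvate dehydrogenase, the highest (0.05), followed by *Ogdh* (0.03), a subunit gene of oxoglutarate dehydrogenase.

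All 4 measured genes of the pentose phosphate pathway were higher at end stage (median 0.36), among them *Pgls* (0.49) and *Rpia* (0.39). Of all 7942 counted genes, 3742 were higher at that stage. *Rpia*, which isomerises ribose phosphate, was higher in all 3 mutant pools than in any WT pool (379, 409 and 367 against 433, 519 and 497; adjusted p = 0.0736 at end stage). None passed the test. The 7 gluconeogenesis genes had a median of 0.02 over the 5 counted at end stage, with *Slc37a4*, the glucose phosphate carrier, at −0.35 and *Pck2* at −0.09. *Pck1* and *Fbp2* stayed at background (0.04 and 0.02).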

How the data were processed

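Both tables deposited by the authors were used. The first holds a linear intensity, background-subtracted (values below 0 occur) and scaled (array means of 331 to 332), and a detection p-value per probe, from BeadStudio 3.2.6 per the submitters' processing notes. The second holds the authors' deposited normalized intensity and served as an alternative; the sources used here do not name its method. The number of value columns left out was 0. Probe IDs were sorted as text and set against the rows. Gene symbols came from the platform annotation (13192 probes with 1 symbol, 0 with several, 9034 unnamed here); by gene identifier 13151 were found in RefSeq (GRCr8), which changed 0 symbols.

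Intensities were normalized with limma 3.58.1 (R 4.3.3) by neqc: normexp background correction, its noise taken from detection p-values, then an offset of 16 and quantile-normalized log2 values. This compresses differences of dim probes (lowest normalized log2 value 6.62), so normexp with noise regressed on the detection p (the lower noise estimate) was an alternative. Probes detected (p below 0.01) on at least 1 array were kept (12711), and the brightest probe stood for its gene (8752 genes). Stage-matched differences set 1 pool against 1 and have no test; genes detected on at least 1 of both arrays were counted. Where a pool did not detect a gene, the fold is a bound, against the higher of its own level and the lowest level of a detected probe. Tests were limma's lmFit and eBayes (two-sided, 2 residual degrees of freedom, Benjamini-Hochberg over all kept probes, threshold 0.05). The 3 WT pools stood in for replicates but come from different stages. Nothing measures the spread between pools of the same kind.

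The 4 genes, the lists and the alternatives were chosen with earlier results of these data known. Named were the 4 genes, their isoforms, list genes that passed a test or reached 2-fold at any stage, the 2 largest end-stage differences in each direction per list, and the 5 genes with the most similar levels (symbols starting LOC or RGD left out); *Nefh*, *Thy1*, *Mbp*, *Aldoc*, *Ldhb*, *Pgm1*, *Pgam2*, *Slc2a1* and *Slc2a3* were added after their values were seen. Alternatives were a 75th-percentile shift, other background corrections, an offset of 50, the deposited normalized values (floored at 16), other filters, the IDs as deposited, a trended robust prior, no stage block, another WT reference, and leaving out each WT pool or stage. Each of the 4 genes had 1 probe, so no other probe could be tried.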

Additional observations from a re-analysis of the deposited data

Results flagged for a closer look

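Of the 4 genes, 3 had stage-matched differences of opposite sign at different stages, each between 1 mutant and 1 WT pool. *Pygm* stood at a log2 difference of 0.10 at the presymptomatic stage and −0.89 at end stage, *Eno3* at 0.17 and −0.41, and *Gapdhs* at 0.14 and −0.046. Against other WT pools the signs turned in some cases: *Pygm* at the presymptomatic stage stood at −0.068 against the onset and −0.058 against the end-stage WT pool, *Eno3* at −0.13 against the end-stage WT pool, and *Gapdhs* at end stage at 0.034 and 0.045 against the presymptomatic and onset WT pools and 0.21 with a 75th-percentile shift. With 1 pool a side the difference between stages was not tested.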

How the results depend on the processing

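Pools were paired by stage in the comparison of all mutant with all WT pools, and 0 probes passed with or without the stage block. *Pkm* stayed lower at the presymptomatic stage and at end stage under all alternatives that could be run on its probe. Its log2 difference at the presymptomatic stage was −2.16 at offset 50, −2.66 without background correction, −2.93 with the lower noise estimate, −3.35 with the deposited normalized values and −2.33 against the end-stage WT pool. At end stage it was −2.13 with a 75th-percentile shift, −1.73 without background correction, −1.70 at offset 50, −1.99 with the deposited values, and −1.97, −2.04 and −1.96 against the presymptomatic WT pool, the onset WT pool and the mean of all 3. The IDs as deposited gave no value for *Pkm* or *Eno3*. The number of probes called at end stage (213) was 1056 with the 75th-percentile shift, 412 at the lower noise estimate, 632 with no background correction, 988 with the deposited values and 746 with the trended prior. In the shift fit limma's prior had infinite degrees of freedom (1.13 in the reported fit), so every probe was given the same spread, and with the deposited values 2660 of 12711 probes had no spread among the WT pools at the floor. The p-values and counts of these 2 alternatives are therefore not reliable. At onset (0) it was 666, 87, 175, 248 and 241 in that order and 5 with probes detected on all arrays, and at the presymptomatic stage (0) it was 393, 261, 347, 2143 and 95. Leaving out any 1 WT pool (1 residual degree of freedom) gave 0 at end stage. With all mutant against all WT pools it was 0 throughout. In the glycolysis list, the 2 genes called at end stage became 1 without background correction, with the lower noise estimate, with the trended prior and with the IDs as deposited, and 0 with probes detected on all arrays and with any WT pool left out. At onset (0 called) the list had 3 with the shift and 1 with the lower noise estimate, no background correction, the deposited values or the trended prior; at the presymptomatic stage (0) it had 1 with the shift and 5 with the deposited values. Its count of genes 2-fold apart at end stage (1) was 2 with the shift and 0 at offset 50 or with probes detected on all arrays. At the presymptomatic stage (1) that count was 0 with the lower noise estimate, no background correction or the IDs as deposited, and at onset (0) it was 1 with the lower noise estimate, no background correction or the deposited values. The glycogen list (0 called) had 1 at end stage with the shift, no background correction or the trended prior, 2 at onset with the shift, and 1 and 2 at the presymptomatic stage without background correction and with the deposited values. Its count 2-fold apart at end stage (1) was 2 with the deposited values and 0 with the IDs as deposited, and at the presymptomatic stage (0) it was 1 with the lower noise estimate or no background correction and 2 with the deposited values. With the IDs as deposited, which attach the names to other probes, *Idh2* (0.71) and *Pdha1* (0.089) at the presymptomatic stage, *Slc2a5* at onset (−0.0074) and end stage (−0.0094) and *Pygl* at end stage (−0.30) changed sign. Over all genes, the median difference went with the 75th-percentile shift from −0.01 to 0.11 at end stage and from 0.03 to 0.13 at the presymptomatic stage. It turned the balance of genes 2-fold apart at end stage from 292 higher and 148 lower to 225 and 381, while the end-stage median of the glycolysis list went from −0.31 to −0.56. Genes 2-fold lower at the presymptomatic stage (208) were 467 without background correction, 646 with the lower noise estimate and 759 with the deposited values, and at onset (15) they were 14, 46 and 99, and 8 at offset 50. The shift made 446 of the 1056 end-stage calls higher. Other causes of these changes were not tested. Levels near background, above all those of *Gapdhs*, are limited by the noise of the arrays.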
